A study of Mus musculus with 4 samples.

Results

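The AlkB family with Fto was examined in alveolar type 2 (AT2) cells of the mouse lung. Its 9 members, Alkbh1 to Alkbh8 and Fto, were chosen by gene symbol, as the whole named family and with earlier results of these data known, from the 40092 rows of a table of RNA-seq read counts per gene. All 9 were in the table, and all 9 had enough counts to be among the 16661 genes tested.

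AlkB proteins are dioxygenases that use iron and 2-oxoglutarate to oxidise a methyl group, which is then lost as formaldehyde. ALKBH5 and FTO act in this way on N6-methyladenosine (m6A), the most common internal methyl mark of messenger RNA, while other members act on transfer RNA, on alkylated DNA or on proteins. AT2 cells make surfactant and serve as stem cells of the alveolus, and the study asked what follows when they lose Alkbh5 and the lung is injured.

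The samples were 4 libraries, 2 from control mice (Ctrl; Alkbh5flox/+, Sftpc-CreERT2, Rosa26-mTmG) and 2 from knockout mice (A5-CKO; Alkbh5flox/flox, Sftpc-CreERT2, Rosa26-mTmG). Mice of both genotypes had received tamoxifen and then bleomycin, a drug that damages the lung epithelium, and the cells were taken 14 days later by sorting for green fluorescence. Both genotypes therefore carried the tamoxifen-dependent Cre, which the promoter of the AT2 gene Sftpc drives, together with a green reporter of recombination. The controls were not wild type, although the column names of the table call them so, since 1 of their Alkbh5 alleles was also floxed. The labels give no age, and they do not say whether each library came from 1 mouse or a pool, so the p-values measure only the spread between these libraries.

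Total counts ranged from 18144865 to 20811757, at which 3 counts, the floor for a gene not detected, correspond to 0.128 to 0.177 normalised counts (CPM, counts relative to library size after scaling with edgeR's TMM factors). Values of a gene are given in the order Ctrl 1, Ctrl 2, A5-CKO 1, A5-CKO 2 throughout. The AT2 label was borne out by the markers, with Sftpc, which encodes surfactant protein C, at 7856 to 16370 CPM in the 4 libraries. The other lists were not absent. The 8 AT1 markers summed to 1873 to 2130 CPM, most of it from Aqp5 and Emp2, although Ager had 2 to 6 counts and Pdpn 0 to 17. Of the 6 AT1 markers tested, 5 had a positive log2 fold change. Hopx, Cav1 and Akap5 were higher in A5-CKO without overlap and Aqp5 was lower, against 20.3% and 23.5% of all genes. The 5 endothelial markers summed to 67.4 to 130 CPM, with Cldn5 at 0 in every library. The 3 club cell markers summed to 2753, 2672, 1887 and 1232 CPM and the 4 ciliated cell markers to 139, 133, 127 and 48.1 CPM, and all 7 had a negative log2 fold change. Of these, 2 club and 3 ciliated cell markers were lower in A5-CKO without overlap, against 23.5% of all genes. The 10 AT2 markers summed to 56704 and 82176 CPM in Ctrl and to 42221 and 34897 in A5-CKO, and all 10 had a negative log2 fold change. Of the 10, 7 were lower in A5-CKO without overlap, against 23.5% of all genes. The 6 markers of the transitional state between AT2 and AT1, such as Krt8, summed to 2556, 1202, 1802 and 2819 CPM. All 6 had a positive log2 fold change, but these ran from 0.0045 for Krt8, which is no difference, to 0.95 for Cldn4. Of the 6, 1, Cdkn1a, was higher in A5-CKO without overlap, against 20.3% of all genes. The 6 fibroblast markers summed to 393, 145, 93.2 and 1014 CPM, and the 8 macrophage and leukocyte markers to 532, 178, 224 and 658. Both sums were thus highest in Ctrl 1 and A5-CKO 2, 1 library of each genotype, and so was that of the transitional list. Single markers could differ from the sums, since Ptprc, a gene of leukocytes, had 50.9, 22.5, 84.3 and 82.8 CPM. Of the 8 macrophage and leukocyte markers, 1, Ptprc, was higher in A5-CKO without overlap and 0 were lower, against 20.3% and 23.5% of all genes. The part of these markers in the results below was not tested, and in bulk libraries fewer cells of a type and less RNA per cell cannot be told apart.

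Alkbh5 was deleted by loxP sites around its first exon and start codon, so the sequences at that exon are shown first. The mouse gene occupies chr11:60537683-60558512 on the plus strand of GRCm38.p6 in RefSeq. Its GENCODE M21 transcript has 4 exons and 5730 bases. Exon 1 has 1218 bases and holds 773 of the 1185 coding bases, which is 65.2% of the reading frame. The first 60 coding bases, all in exon 1, lie at chr11:60538423-60538482, with the start codon in capitals. The joined end of exon 1 and beginning of exon 2 comes from chr11:60539166-60539195 and chr11:60547688-60547717, with the exon 2 bases in capitals. Both sequences were read from the GENCODE transcript.
Alkbh5 start of the reading frame: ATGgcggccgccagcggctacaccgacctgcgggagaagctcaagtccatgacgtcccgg
Alkbh5 exon 1 to exon 2: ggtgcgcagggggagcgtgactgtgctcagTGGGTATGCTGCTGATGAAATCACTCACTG

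Outside exon 1 lies 78.7% of the transcript, most of it in exon 4, which has 4275 bases. The deposited table gives 1 count for the whole gene, so reads from exon 1 cannot be told apart from reads from the 3 exons that the deletion leaves.

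**Figure D1:**
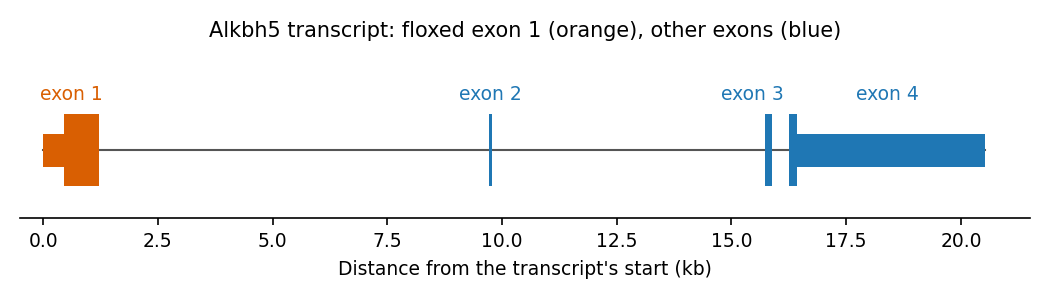
The 4 exons of the Alkbh5 transcript, drawn to scale by distance from the transcript's start in kb. Tall boxes are coding and low boxes non-coding sequence, and the floxed exon 1 (orange, 1218 bases) stands apart from exons 2 to 4 (blue), which together hold 78.7% of the transcript.

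Alkbh5 encodes the nuclear m6A demethylase and was the targeted gene. It had 81.7 and 152 CPM in the Ctrl libraries against 19.3 and 36.6 CPM in the A5-CKO libraries. The genotypes did not overlap, and the second library of each genotype was the higher, by 1.87-fold in Ctrl and 1.89-fold in A5-CKO. The mean was 117 ± 49.96 CPM (SD, n = 2) in Ctrl and 28.0 ± 12.2 CPM (SD, n = 2) in A5-CKO, so that A5-CKO kept 23.9% of the Ctrl level. The log2 fold change was -2.06 (standard error 0.46, 95% interval -3.14 to -0.98). Its adjusted p was 0.528 by edgeR (quasi-likelihood test, Benjamini-Hochberg adjustment), which did not pass the threshold of 0.05. No gene passed, so the share called was 0%. In DESeq2 with default filtering the adjusted p of Alkbh5 was 0.022, where 0.203% of the genes were called as lower in A5-CKO. Alkbh5 stood 38th of 16661 genes by its p in edgeR.

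Of the 9 members, 0 had an adjusted p under 0.05 in edgeR or in limma voom, and 1, Alkbh5, had one in DESeq2. At an unadjusted p under 0.05 in edgeR, 2 members, Alkbh5 and Alkbh7, were lower in A5-CKO and 0 were higher. Of all genes tested, 4.71% were lower and 4.48% higher by this measure. Which members these were depended on the fit. With total counts only they were Alkbh5, lower, and Alkbh8, higher, and with the correction for GC and length they were Alkbh5 and Fto, both lower, so only Alkbh5 was among them in every alternative. Both A5-CKO libraries were below both Ctrl libraries for 5 members, against 23.5% of all genes, and above both for 3 members, against 20.3%. The 5 were Alkbh2, Alkbh5, Alkbh6, Alkbh7 and Fto, and the 3 were Alkbh1, Alkbh3 and Alkbh8. Scaling by total counts alone, which moves the median log2 fold change of all genes from -0.02 to 0.30, left Alkbh5, Alkbh6 and Alkbh7 below and put Alkbh1, Alkbh3, Alkbh4 and Alkbh8 above. The shares of all genes under that scaling are not given here. The median log2 fold change of the 9 members was -0.49, and that of the 8 members other than Alkbh5 was -0.29. With total counts alone the latter was 0.03, but there the median of all genes was 0.30, so this shift is one of scale. Without Ctrl 1 it was 0.02, beside 0.11 for all genes. After a correction for GC content and transcript length it was 0.03, beside -0.02 for all genes. The untargeted members thus had no common direction that held in every fit.

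**Figure D2:**
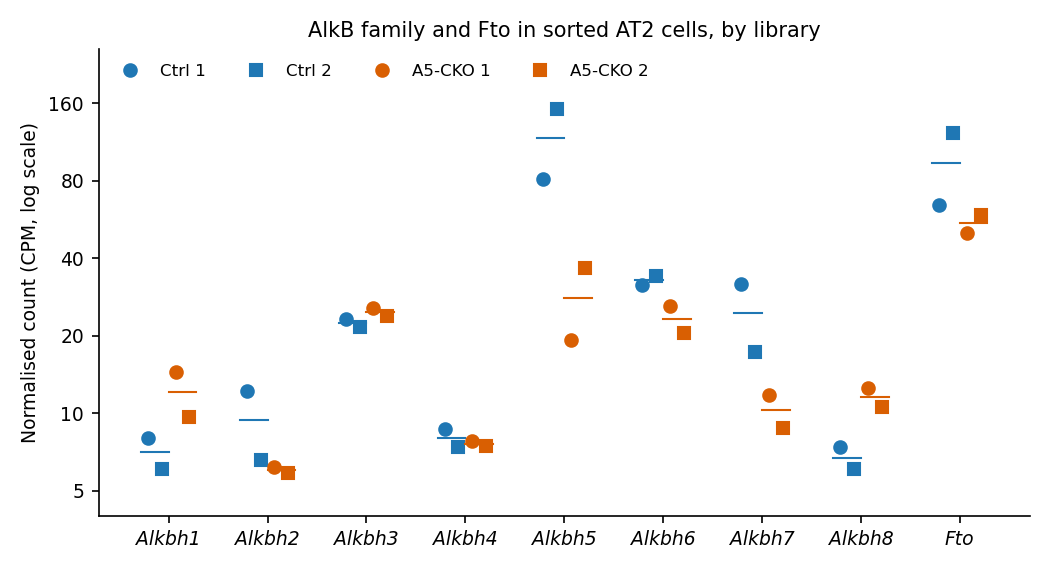
Normalised counts (CPM, log scale) of the 9 members in the 4 libraries, with blue points for Ctrl, orange points for A5-CKO, circles for library 1, squares for library 2 and a line at each genotype's mean (n = 2). Alkbh5 shows the widest gap, from 81.7 and 152 in Ctrl to 19.3 and 36.6 in A5-CKO, while the points of Alkbh4 overlap; levels of different genes are not per length and are not to be compared.

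Fto, the other m6A demethylase, had 64.5 and 123 CPM in Ctrl against 50.3 and 59.1 CPM in A5-CKO. The genotypes did not overlap, but A5-CKO 2 came close to Ctrl 1. The log2 fold change was -0.78 (standard error 0.38, 95% interval -1.67 to 0.11) and the adjusted p was 0.535 in edgeR. Ctrl 2 decided its size, since leaving out Ctrl 2 gave a log2 fold change of -0.28 and leaving out Ctrl 1 one of -1.11. The TMM-scaled fit thus gave no sign of an Fto level above that of the controls, and its interval does not go beyond a log2 fold change of 0.11. With total counts alone the log2 fold change of Fto was -0.44 and the genotypes overlapped, so the separation depends on the scaling.

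Counts of 2 genes in the same library can be set against each other without any scaling factor. Alkbh5 had 1.27 and 1.23 counts for each Fto count in Ctrl, against 0.384 and 0.619 in A5-CKO. The Ctrl libraries, which differed 1.87-fold in Alkbh5 and 1.91-fold in Fto, were nearly the same in this ratio. On the log2 scale the mean ratio was 1.36 lower in A5-CKO, which is 2.56-fold, and the genotypes did not overlap. The exact permutation test over the 4 libraries gave a two-sided p of 0.333, the smallest that 2 libraries against 2 allow. Against the other members, the ratio of Alkbh5 was lower in A5-CKO without overlap for Alkbh1, Alkbh2, Alkbh3, Alkbh4, Alkbh6 and Alkbh8, by 2.82-fold (Alkbh2) to 7.23-fold (Alkbh8). The exception was Alkbh7, with 2.56 and 8.79 in Ctrl against 1.64 and 4.16 in A5-CKO. Alkbh5 was itself lower without overlap, and the share of all genes that separate in such a ratio is not given here. The number of members that separate therefore says little beyond the Alkbh5 difference itself.

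**Figure D3:**
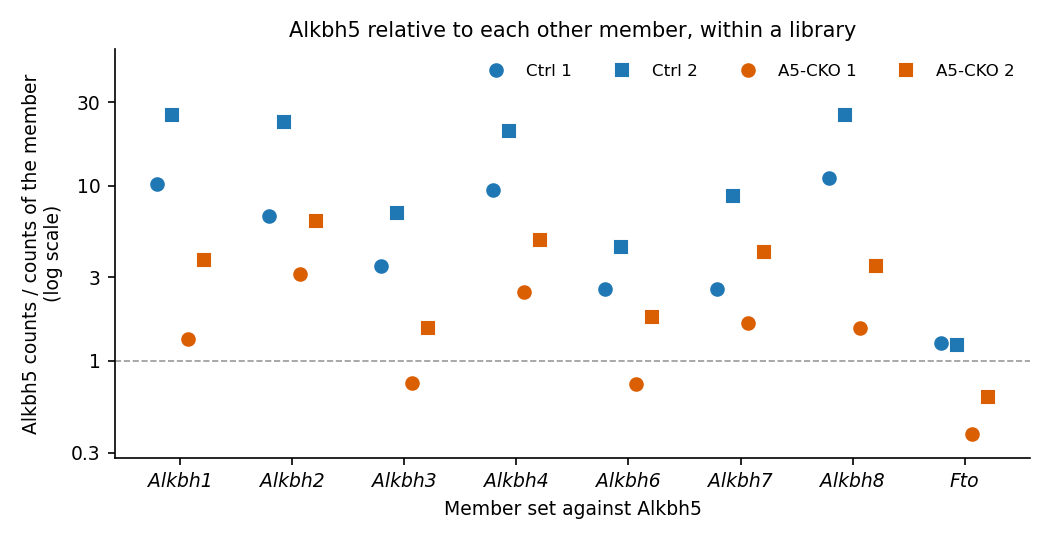
Alkbh5 counts divided by the counts of each other member in the same library (log scale), with a dashed line at 1. Blue points are Ctrl and orange points A5-CKO; the ratio to Fto is 1.27 and 1.23 in Ctrl against 0.384 and 0.619 in A5-CKO, and the genotypes overlap only for Alkbh7.

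Alkbh7 encodes a mitochondrial member of the family with a part in necrotic cell death and fatty acid metabolism. It had 31.9 and 17.3 CPM in Ctrl against 11.8 and 8.81 CPM in A5-CKO. The genotypes did not overlap, but Ctrl 2 lay nearer to the A5-CKO libraries than to Ctrl 1. The log2 fold change was -1.25 (standard error 0.45, 95% interval -2.32 to -0.19), with an adjusted p of 0.528 in edgeR and of 0.324 in DESeq2. It was -0.70 without Ctrl 1, and -0.75 when GC content and length were corrected for. Its transcript, with 917 bases, is the shortest of the 9.

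Alkbh1 and Alkbh8 act on transfer RNA. ALKBH1 removes methyl groups from transfer RNA and oxidises a cytosine in the mitochondrial methionine transfer RNA, and ALKBH8 completes the modification of wobble uridines. Alkbh1 had 8.04 and 6.05 CPM in Ctrl against 14.5 and 9.66 CPM in A5-CKO. Alkbh8 had 7.39 and 6.05 CPM in Ctrl against 12.6 and 10.6 CPM in A5-CKO. For both genes the lower A5-CKO library was above the higher Ctrl library. The log2 fold change was 0.78 for each, with a 95% interval of -0.34 to 1.90 for Alkbh1 and -0.28 to 1.84 for Alkbh8. The adjusted p in edgeR was 0.579 and 0.572, and neither passed. After correction for GC content and length, Alkbh1 had a log2 fold change of 0.61 and Alkbh8 of 0.17. Alkbh8 has the longest transcript of the 9, at 7674 bases, and the lowest GC content, at 40.2%.

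Alkbh2 and Alkbh3 encode enzymes that repair alkylated bases, ALKBH2 mainly in double-stranded DNA and ALKBH3 in single-stranded DNA and RNA. Alkbh3 had 23.4 and 21.7 CPM in Ctrl against 25.7 and 23.8 CPM in A5-CKO. The genotypes were close without overlapping, and the log2 fold change of 0.14 (95% interval -0.65 to 0.92) had an adjusted p of 0.899 in edgeR. Alkbh2 had 12.2 and 6.57 CPM in Ctrl and 6.20 and 5.86 CPM in A5-CKO, so that only Ctrl 1 stood apart. Its log2 fold change was -0.64 (95% interval -1.86 to 0.58, adjusted p 0.666 in edgeR), and it was -0.07 without Ctrl 1 and -0.10 when GC content and length were corrected for. Of the exonic bases of Alkbh2, 29.5% overlap those of Usp30 on the other strand, and Usp30 had 516 to 699 counts. Whether reads were counted by strand is not given in the sources used here, so reads of this stretch are uncertain.

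Alkbh4, whose product removes a methyl group from actin, was the member with the least difference. It had 8.69 and 7.39 CPM in Ctrl against 7.79 and 7.44 CPM in A5-CKO, and both A5-CKO values lie between the Ctrl values. The log2 fold change was -0.08 (95% interval -1.15 to 1.00, adjusted p 0.959 in edgeR), and it was positive under upper-quartile scaling, total counts alone, the correction for GC content and length, and without Ctrl 1. Alkbh6, one of the least characterised members, had 31.6 and 34.1 CPM in Ctrl and 26.1 and 20.6 CPM in A5-CKO. Its log2 fold change was -0.49 (95% interval -1.28 to 0.29, adjusted p 0.611 in edgeR).

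**Figure D4:**
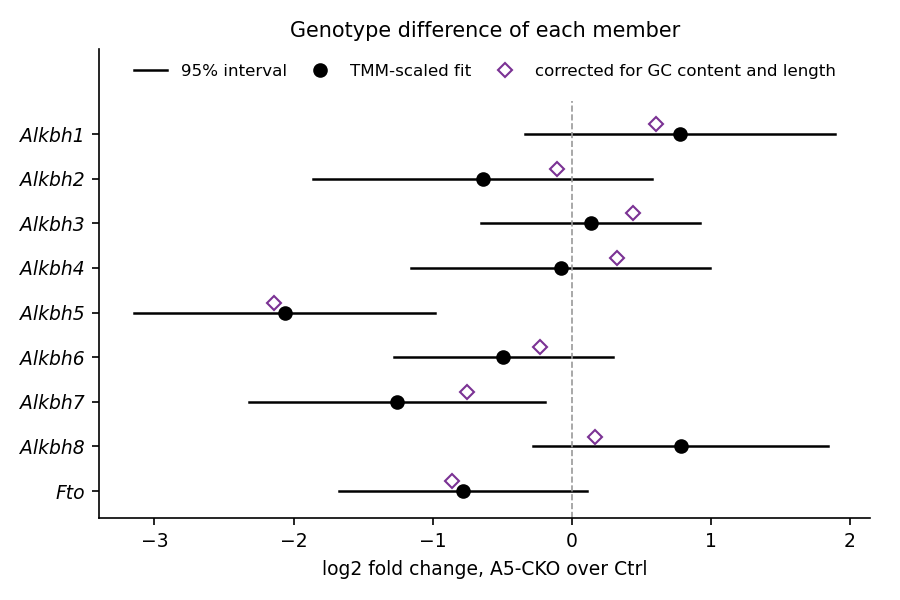
log2 fold change of each member, A5-CKO over Ctrl, with black points and 95% intervals from edgeR (2 libraries per genotype) and open diamonds for the fit corrected for GC content and transcript length. The interval lies wholly below 0 for Alkbh5 (-3.14 to -0.98) and Alkbh7 (-2.32 to -0.19); the correction leaves Alkbh5 at -2.14 and brings Alkbh8 from 0.78 to 0.17.

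The GC and length correction moved the shorter transcripts up and the others down. It added 0.54 to the log2 fold change of Alkbh2, 0.50 to Alkbh7, 0.40 to Alkbh4, 0.31 to Alkbh3 and 0.26 to Alkbh6, whose longest transcripts have 917 to 1773 bases. It took 0.62 from Alkbh8 and 0.17 from Alkbh1. Alkbh5 and Fto, with 5730 and 4707 bases, moved by less than 0.08 each. The corrected values were -2.14 for Alkbh5 and -0.86 for Fto, and the 2 m6A demethylases were the most negative members in that fit.

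To compare the members with each other, counts were divided by the length of all exons of each gene and expressed as TPM, a share of all transcripts. In Ctrl the order was Alkbh7 at 58.8 ± 21.8 TPM, Alkbh5 at 49.1 ± 23.2, Alkbh6 at 26.2 ± 2.76, Alkbh2 at 20.7 ± 7.85, Fto at 18.1 ± 8.86, Alkbh3 at 17.7 ± 0.0077, Alkbh4 at 9.41 ± 0.595, Alkbh1 at 2.65 ± 0.395 and Alkbh8 at 1.90 ± 0.171 (SD, n = 2 each). The values of Alkbh7 and Alkbh5 overlapped, and so did those of Alkbh6 with Alkbh2, Alkbh2 with Fto, and Fto with Alkbh3. In A5-CKO, Alkbh5 stood 5th at 15.7 ± 6.42 TPM, between Alkbh2 at 18.3 ± 1.30 and Fto at 14.2 ± 1.17 TPM. The order depends on the length used. With the longest transcript instead of all exons, Alkbh6 came first at 54.4 TPM in Ctrl, before Alkbh7 at 51.8, Alkbh5 at 40.3, Fto at 39.4 and Alkbh3 at 31.5 TPM. Alkbh4, Alkbh1 and Alkbh8 were the lowest 3 with either length.

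The 9 members summed to 202 and 207 TPM in the Ctrl libraries and to 166 and 148 TPM in the A5-CKO libraries. Without Alkbh5 the sums were 169, 142, 155 and 128 TPM in the same order, and the genotypes overlapped. TPM takes no TMM factors, and the 2 scales differ here. In CPM the sums without Alkbh5 were 188, 223, 155 and 146, so both A5-CKO libraries were below both Ctrl libraries. Alkbh5 made up 16.2% and 31.6% of the family in Ctrl and 6.73% and 13.6% in A5-CKO. Alkbh3 made up 8.78% and 8.53% in Ctrl against 17.0% and 16.8% in A5-CKO. Alkbh5 and Fto together, the m6A demethylases, gave 44.5 and 89.9 TPM in Ctrl and 24.6 and 35.3 TPM in A5-CKO, so both A5-CKO libraries were below both Ctrl libraries.

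**Figure D5:**
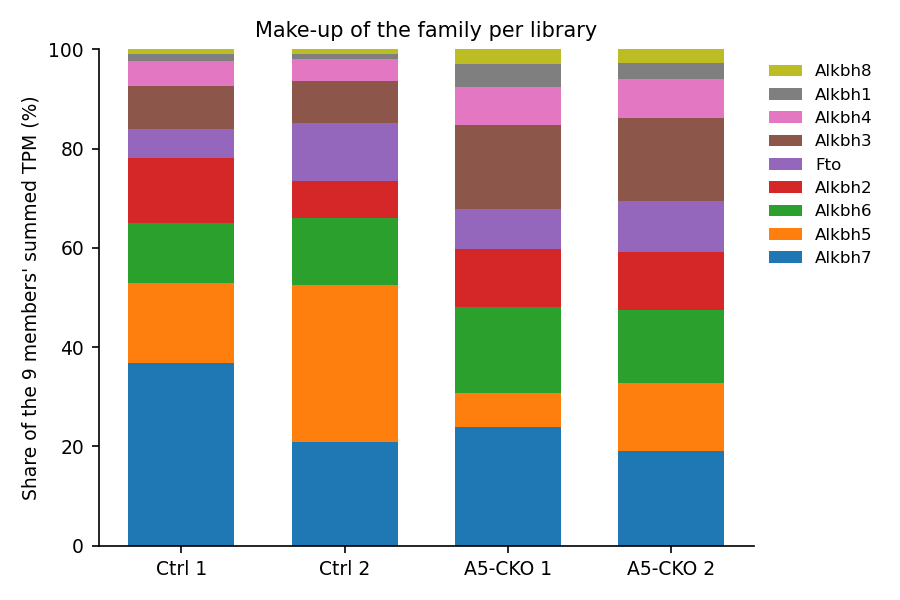
Share of each member in the summed TPM of the 9 members (%), 1 bar per library, stacked in the order of the Ctrl levels. The Alkbh5 share is 16.2% and 31.6% in Ctrl against 6.73% and 13.6% in A5-CKO, and Alkbh7 takes from 19.1% to 36.8% in the 4 libraries.

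The promoters of Alkbh5 and Fto are shown because the levels of these 2 genes differed alike between the Ctrl libraries. All 9 members were found in the RefSeq promoter table for GRCm38.p6, which gives 250 bases before and 50 after each start, and they have 11 such windows. Each window was searched on both strands for 6 short motifs, none of which contains another. The CCAAT box, searched as CCAAT, stands in 37.4% of all 32851 promoters and in those of 5 members, and the GC box GGGCGG in 35.7% and in 4 members. The ETS core CCGGAAG is in 8.86% of all promoters and in 4 members, and the E-box CACGTG in 7.15% and in 1 member (Alkbh7). The TATA box TATAAA, at 13.6% of all promoters, and the cyclic AMP response element TGACGTCA, at 1.79%, are in none of the 11 windows. The Alkbh5 window at chr11:60537433-60537732 on the plus strand has 1 CCAAT and 2 GC boxes, in capitals, and the Fto window at chr8:91313275-91313574 on the plus strand has none of the 6 motifs.
Alkbh5 promoter: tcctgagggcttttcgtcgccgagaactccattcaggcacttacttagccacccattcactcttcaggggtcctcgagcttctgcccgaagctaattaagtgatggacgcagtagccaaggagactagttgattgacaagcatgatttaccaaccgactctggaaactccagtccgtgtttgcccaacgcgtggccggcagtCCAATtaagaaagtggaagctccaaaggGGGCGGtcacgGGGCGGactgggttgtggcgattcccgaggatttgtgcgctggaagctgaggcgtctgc
Fto promoter: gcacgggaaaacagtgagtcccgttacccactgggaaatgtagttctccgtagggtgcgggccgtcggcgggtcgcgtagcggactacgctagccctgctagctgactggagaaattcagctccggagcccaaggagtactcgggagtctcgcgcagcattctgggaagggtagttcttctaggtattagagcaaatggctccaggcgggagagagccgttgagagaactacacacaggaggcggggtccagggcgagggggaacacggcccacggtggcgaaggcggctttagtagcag

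The genes beside Alkbh5 and Fto were examined to see whether the differences extended along the chromosome. The 3 nearest protein-coding genes on each side of Alkbh5 are Gid4, Drg2 and Myo15 before it and Llgl1, Flii and Mief2 after it. All 6 were tested and had log2 fold changes from -0.74 (Mief2) to -0.16 (Gid4), with a median of -0.35, beside -0.02 for all genes. With total counts only the median was -0.03, beside 0.30 for all genes. Drg2, Llgl1 and Mief2 were lower in A5-CKO without overlap, against 23.5% of all genes. None of the 6 had an unadjusted p under 0.05 in edgeR, against 4.71% lower and 4.48% higher of all genes. Myo15, whose end is 9.31 kb from the start of Alkbh5, had 40, 74, 78 and 44 counts, with overlapping genotypes. Beside Fto, Rbl2, Aktip, Rpgrip1l, Irx3 and Irx5 were tested, with log2 fold changes from -0.60 (Irx3) to 0.88 (Rpgrip1l), and Irx6, with 0 to 2 counts, was not. Rpgrip1l, a gene of the ciliary transition zone, spans chr8:91217030-91313291, which comes within 0.076 kb of the start of Fto. This span reaches into the Fto promoter window shown above. Rpgrip1l had 5.32 and 4.60 CPM in Ctrl and 11.9 and 6.41 CPM in A5-CKO, so that it was higher without overlap, against 20.3% of all genes. Its adjusted p was 0.578 in edgeR, and its log2 fold change was 0.33 with the GC and length correction. Whether it and Fto are linked was not tested.

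The 5 genes whose log2 levels, centred on their mean over the 4 libraries, lay nearest to those of Alkbh5 were Tmem28, Klf15, Cyp2s1, Scgb1c1 and Cth, among 9923 genes with a mean of at least 10 CPM. Their Euclidean distances from Alkbh5 were 0.525, 0.619, 0.665, 0.669 and 0.697. Tmem28, the nearest, had 39.0 and 74.8 CPM in Ctrl and 10.5 and 12.3 CPM in A5-CKO. Fto, at a distance of 1.44, stood 286th, and Alkbh7, at 1.80, stood 1892nd.

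Around the family lie the proteins that set and read its marks. None of the 8 tested m6A methyltransferase complex genes, the 7 tested readers or the 4 other m6A methyltransferases passed the adjusted threshold in edgeR. Of the methyltransferase complex, Rbm15, an RNA-binding subunit that recruits the complex to its targets, had 10.2 and 10.1 CPM in Ctrl and 30.5 and 19.2 CPM in A5-CKO (log2 fold change 1.30, adjusted p 0.528). Its paralogue Rbm15b went the other way, with 75.2 and 114 CPM in Ctrl and 50.03 and 61.7 CPM in A5-CKO. The catalytic partner Mettl14 had a log2 fold change of 0.54 and the scaffold Virma of 0.15, which the GC and length correction brought to -0.03 and -0.23. Of the readers, 5 were higher in both A5-CKO libraries and 2, Ythdf3 and Ythdc1, had an unadjusted p under 0.05 in edgeR, against 20.3% and 4.48% of all genes. With the GC and length correction neither had one, at log2 fold changes of 0.20 for Ythdf3 and 0.18 for Ythdc1. The median of the 7 readers was 0.74, and the GC and length correction brought it to 0.20. Zcchc4, which methylates ribosomal RNA, had 6.39 and 9.19 CPM in Ctrl and 19.8 and 15.6 CPM in A5-CKO (log2 fold change 1.18), while Pcif1, which methylates the adenosine beside the cap, had a log2 fold change of -0.54.

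Partners of the other members were also counted. Of 11 genes for AlkB partners, wobble uridine modification and alkylation repair, 0 passed in edgeR, and 3 were lower at an unadjusted p under 0.05, namely Ascc1, Trmt112 and Ctu1, against 4.71% of all genes. None of the 3 kept such a p with the GC and length correction, where they had log2 fold changes of -0.63, -0.48 and -0.76, or with total counts only. Trmt112, the subunit that activates the methyltransferase part of ALKBH8, had 86.0 and 63.1 CPM in Ctrl and 39.1 and 39.1 CPM in A5-CKO. Its log2 fold change was -0.93 (standard error 0.30), beside 0.78 for Alkbh8. Ctu1, which puts sulphur on the same wobble uridines, had 20.6 and 23.7 CPM in Ctrl and 8.69 and 11.5 CPM in A5-CKO. Ascc1, of the complex that works with ALKBH3, had 54.5 and 52.4 CPM in Ctrl and 29.7 and 26.6 CPM in A5-CKO, while Alkbh3 itself had a log2 fold change of 0.14. The log2 fold changes of Ctu1 and Ascc1 were -1.13 and -0.92, and Elp3, of the Elongator complex, had -0.43. Of the 9 methyltransferases that set marks other AlkB proteins act on, 0 had an unadjusted p under 0.05 in edgeR, and Mettl6 (0.55), Nsun3 (0.38), Mettl2 (0.15) and Trmt61b (-0.34) were those whose libraries separated by genotype.

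The last 2 lists concern the co-substrate. Of 9 genes for the supply of 2-oxoglutarate and of metabolites that compete with it, 0 passed in edgeR, 2 (Ogdh and Idh2) were lower at an unadjusted p under 0.05, and 6 were lower in A5-CKO without overlap, against 4.71% and 23.5% of all genes. Ogdh, which consumes 2-oxoglutarate, had 293 and 616 CPM in Ctrl and 181 and 212 CPM in A5-CKO (log2 fold change -1.21). Idh2, which makes it in mitochondria, had 245 and 405 CPM in Ctrl and 179.5 and 157 CPM in A5-CKO (log2 fold change -0.95, and -0.59 with the GC and length correction, where Idh2 no longer had an unadjusted p under 0.05). With total counts only neither gene had one. Idh1, the cytosolic enzyme, had a log2 fold change of -0.45 and Sdhb, of succinate dehydrogenase, of -0.73. The TET enzymes are dioxygenases of the same kind that oxidise methylcytosine in DNA. Of the 3, Tet2 had 7.92 and 9.66 CPM in Ctrl and 41.3 and 20.9 CPM in A5-CKO. Its log2 fold change was 1.82 (standard error 0.45) with an adjusted p of 0.528 in edgeR. In DESeq2 with default filtering its adjusted p was 0.043, which passed the threshold. The share of all genes that DESeq2 called as higher is not given here. With the GC and length correction the log2 fold change of Tet2 was 1.36, with an adjusted p of 0.713 in edgeR. Tet1 and Tet3 did not separate by genotype.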

How the data were processed

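The authors trimmed the reads with Trim Galore 0.6.10, aligned them to mm10 with HISAT2 2.2.1 and counted them per gene with featureCounts 2.0.3, per the submitters' processing notes. The deposited values are whole read counts per gene, not normalised, and replicates were not pooled. The study's methods describe the counting under MeRIP-seq, and the same counting was assumed for the RNA-seq. They also describe removal of duplicate reads with sambamba under both headings, and removal of ribosomal RNA reads under RNA-seq. What these steps did to the counts was not tested.

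From the counts, edgeR 4.0.16 (R 4.3.3) was used with TMM factors (0.860 to 1.13), filterByExpr, glmQLFit and glmQLFTest over 16661 genes, with Benjamini-Hochberg adjustment. The biological coefficient of variation was 41.6%. Alternatives were other scalings and filters, DESeq2 1.42.0, limma 3.58.1 (voom), a robust fit, a replicate block, each library left out, and offsets from splines on GC content and length (4 degrees of freedom, 15237 genes). The fit was also run on simulated data with known fold changes, whose outcome is not given here and is not used as support. TPM used GENCODE M21 exons, for 30062 genes. Floors cover counting error only. The members and lists were chosen with earlier results of these data known. Named genes were the members, up to 4 genes a pathway list that separated by genotype, neighbours of Alkbh5 and Fto, and the 5 nearest in pattern.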

Additional observations from a re-analysis of the deposited data

How the results depend on the processing

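Alkbh5 was lower in A5-CKO under every alternative. Apart from the fit with crossed numbers, its adjusted p passed in DESeq2 only, at 0.025 for the genes edgeR tested (log2 fold change -2.01) and 0.022 under default filtering (-2.02), each making 1 member called. Without 1 library its log2 fold change lay between -2.63 and -1.58. Alkbh4 turned positive with upper-quartile factors (0.013), total counts only (0.23) and the GC and length correction (0.33), and leaving out 1 library gave -0.23 to 0.10. Members with an unadjusted p under 0.05 numbered from 1 to 2 when 1 library was left out. Without Ctrl 1 and with the GC and length correction they were Alkbh5 and Fto, with total counts only Alkbh5 and Alkbh8, and without A5-CKO 2 Alkbh5 alone. The median of the members was -0.10 with the GC and length correction and from -0.68 to -0.067 without 1 library. That of the members without Alkbh5 was 0.029 with total counts only, where that of all genes was 0.30. It was 0.031 with the correction, and from -0.40 to 0.017 without 1 library. With total counts only, 3 members lay below and 4 above, and the shares of all genes under that scaling are not given here. The difference of the log2 ratio of Alkbh5 to Fto, A5-CKO minus Ctrl, lay between -1.70 and -1.01 without 1 library.

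Of the other named genes, Tet2 passed in both DESeq2 fits (adjusted p 0.042 and 0.043), where the share of all genes called higher is not given here. Directions turned in 14 cases. With the correction Mettl14 (-0.032), Virma (-0.23) and Nsun3 (-0.0066) became negative, and with total counts only Gid4 (0.16), Myo15 (0.027), Flii (0.056), Rbl2 (0.19) and Aktip (0.15) became positive. Without 1 library Gid4 ran from -0.35 to 0.083, Myo15 from -0.84 to 0.14, Flii from -0.49 to 0.026 and Rbl2 from -0.45 to 0.27. The cause was not tested.

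The labels number the libraries 1 and 2 in each genotype, but same-numbered libraries deviated in opposite directions (correlation -0.34 over genes), so the numbers were not taken as pairs. A replicate block gave Alkbh5 a log2 fold change of -2.07 (adjusted p 0.847 in edgeR) and called 0 members. With the numbers crossed, chosen after seeing the data, 1 member, Alkbh5, and 230 of the 16661 genes in all were called. In that fit 3 members had an unadjusted p under 0.05 in edgeR, and so did 2582 of all genes. The block of same numbers had 754 such genes. With 2 libraries a genotype and a coefficient of variation of 41.6%, the 95% interval of every member other than Alkbh5 and Alkbh7 includes 0.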
